A study of Mus musculus with 8 samples.

Results

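The STAT factors *Stat2*, *Stat3*, *Stat4*, *Stat5a* and *Stat6* and the feedback inhibitors *Socs1*, *Socs2*, *Socs3* and *Cish* were followed in mouse bone marrow-derived macrophages with and without iNOS, the inducible nitric oxide synthase encoded by *Nos2*. The genes were chosen by name, as 5 STAT factors and 4 inhibitors of the SOCS family. They are represented by 15 of the 25697 probes of the array. Of these, 14 probes, covering all 9 genes, passed the filter on low values. The probe left out is one of 3 for *Stat4*, which was not detected on any of the 8 arrays. A further 9 probes of other STAT and SOCS genes were not used here.

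STAT proteins are transcription factors that wait in the cytoplasm, are phosphorylated by receptor-bound JAK kinases when a cytokine binds, and then enter the nucleus as dimers. STAT2 works with IRF9 in the complex formed after type I interferon, STAT3 carries the IL-6 and IL-10 signals, STAT4 the IL-12 signal, STAT5 the GM-CSF signal and STAT6 the IL-4 and IL-13 signals. SOCS proteins and CISH are made in response to STAT activity, bind the receptors or the JAK kinases and switch the signal off again. Their mRNA is therefore often read as a record of recent cytokine signalling, although an array measures mRNA and not the phosphorylated protein.

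Bone marrow of female mice, 8 weeks old and entered as C57bl/6J, was cultured in GM-CSF at 10 ng/ml for 7 days. The study's methods list the wild-type mice as C57BL/6J and the iNOS-deficient mice as B6.129P2-*Nos2*tm1Lau/J. The part of strain background in the genotype comparisons was not tested. Cells of wild-type mice (WT) and of mice labelled iNOSKO, which lack iNOS by that label, were left unstimulated (CON) or received LPS at 200 ng/ml plus IFN-γ at 10 ng/ml for 6 h (M1). LPS is a bacterial cell wall component sensed by TLR4, and IFN-γ signals through JAK1 and JAK2. Each of the 4 groups, WT CON, WT M1, iNOSKO CON and iNOSKO M1, was measured on 2 arrays, and the question was how the absence of iNOS changes M1 activation. All groups share the GM-CSF culture, so none is free of a STAT5 stimulus. Nothing in the labels ties the 2 arrays of a group to separate mice or cultures, and p-values then measure a spread that may be technical.

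The *Nos2* probe was not detected on any unstimulated array. It read 7.45 and 7.04 on the log2 scale on the WT M1 arrays and 7.52 and 7.69 on the iNOSKO M1 arrays, a difference of 0.36 that did not pass the test (adjusted p = 0.397). Which part of the gene was removed is not given in the sources used here, so this probe does not check the labels and every direction between genotypes rests on them. The iNOSKO CON arrays lay closer to the WT M1 arrays, with a median absolute log2 difference of 0.344 to 0.366 over the probes tested, than to the WT CON arrays, with 0.484 to 0.491. Within groups this distance was 0.161 to 0.188. Between 46.05% and 49.32% of the probes were detected on each array. All 10 macrophage markers tested were detected in every group, while *Cd3d*, *Cd3e* and *Cd3g*, which define T cells, were not detected in any group. *Cd2*, another T cell marker, was undetected in every group but WT M1. *Lck*, a T cell kinase and the only T cell marker tested, rose by 1.89 with stimulation in WT and by 4.03 in iNOSKO on the log2 scale, and was higher in iNOSKO M1 than in WT M1 by 1.97 (adjusted p = 0.0143), with intensities of 133.5 to 145.8 against 31.75 to 40.03. Marker lists were compared between the genotypes. Of all probes tested, 15.9% were called higher and 16.2% lower in iNOSKO CON than in WT CON. In iNOSKO M1 against WT M1 the shares were 24.2% and 24.3%. Of the macrophage markers 1 was called higher and 3 lower in iNOSKO CON than in WT CON, with summed intensities of 46060 to 47690 against 56680 to 57550, and 3 higher and 4 lower in iNOSKO M1 than in WT M1, with 67160 to 68540 against 64210 to 66810. With neqc, another normalization tried, the M1 counts were 2 and 5. Of 7 dendritic cell markers tested, 5 were called higher in iNOSKO CON than in WT CON, and their summed intensity was 4361 to 4494 against 291 to 321, with *Flt3* and *Xcr1* undetected in both. The 6 granulocyte markers tested, which do not include the undetected *Mpo*, summed to 1655 to 1716 against 1120 to 1150. Of these 5 were called higher and 1 lower, and with neqc 3 and 1. Their median log2 difference was 1.35, or 0.52 with the 3 genes undetected in WT CON set against the lowest signal detected. The 5 markers of dividing cells summed to 1871 to 1896 against 507 to 576. Among the M1 groups the sums in iNOSKO and WT were 16180 to 17290 against 5527 to 5614 for dendritic cell markers, 3924 to 4027 against 1376 to 1493 for granulocyte markers and 674 to 682 against 1632 to 1768 for dividing cells. The dendritic cell markers did not move as one list there, with 3 called higher, 1 lower and 3 not called, and a median log2 difference of 0.25. The lower one, *Cd209a*, was detected on both WT M1 arrays and on neither iNOSKO M1 array, and was at least 4.12-fold lower (adjusted p = 0.0013), the bright group being set against the lowest signal detected. *Clec9a* was detected on 1 of 2 WT M1 arrays and on no iNOSKO M1 array. Of the 6 granulocyte markers, 3 were called higher in iNOSKO M1 than in WT M1 and 3 were not called, with a median of 1.27. With neqc all 6 were called higher. The part of these marker differences in the results below was not tested. In cultures measured in bulk, a different number of cells of a type and a different amount of mRNA per cell cannot be told apart.

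Promoters of 8 of the 9 genes were found in the RefSeq table (GRCm38.p6), and the 250 bases before each start were searched on both strands for the letters that STAT dimers and the interferon complex are known to prefer, TTCNNNGAA, TTC and GAA with 4 bases of any kind between them, and GAAA and GAAA with 2 bases between them. Shown here are the *Socs3*, *Socs1* and *Stat2* windows, which hold a match. Capitals mark TTCNNNGAA in *Socs3* and the GAAA pair in the others.
*Socs3* promoter, chr11:117969367-117969616, minus strand: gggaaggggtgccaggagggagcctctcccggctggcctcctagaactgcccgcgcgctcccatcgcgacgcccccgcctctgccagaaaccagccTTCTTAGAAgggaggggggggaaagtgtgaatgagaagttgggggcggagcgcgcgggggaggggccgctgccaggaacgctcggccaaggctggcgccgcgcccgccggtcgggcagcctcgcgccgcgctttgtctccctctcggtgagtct
*Socs1* promoter, chr16:10785537-10785786, minus strand: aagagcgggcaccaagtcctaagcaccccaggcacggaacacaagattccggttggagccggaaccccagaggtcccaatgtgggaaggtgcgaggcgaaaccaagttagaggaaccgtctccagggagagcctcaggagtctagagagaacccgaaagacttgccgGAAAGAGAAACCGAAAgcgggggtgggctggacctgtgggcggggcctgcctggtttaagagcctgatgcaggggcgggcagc
*Stat2* promoter, chr10:128270248-128270497, plus strand: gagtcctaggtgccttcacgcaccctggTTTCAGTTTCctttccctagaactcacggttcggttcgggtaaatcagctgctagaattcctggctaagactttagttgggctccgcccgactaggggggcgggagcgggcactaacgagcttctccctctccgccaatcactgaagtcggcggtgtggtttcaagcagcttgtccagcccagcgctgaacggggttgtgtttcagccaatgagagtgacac

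TTCNNNGAA was found in 1 of the 8 genes, *Socs3*, where the match TTCTTAGAA ends 146 bases before the start, and in 7.02% of all 32851 promoters of the table. The GAAA pair was found in 3 of the 8 genes and in 2.98% of all promoters. Genes are counted with a match before any of their starts, and *Stat4* and *Stat5a* have more than 1, while the percentages count single promoters. *Socs1* holds 2 overlapping matches, GAAAGAGAAA and GAAACCGAAA, which end 74 and 68 bases before the start. *Stat2* holds 1 on the opposite strand, TTTCAGTTTC, 213 bases before the start, and also a match to TTC and GAA with 4 bases between them, TTCCCTAGAA, 201 bases before it, a motif present in 5.85% of all promoters. *Stat4* holds GAAAGTGAAA 88 bases before one of its starts. The *Stat3*, *Stat5a*, *Stat6* and *Cish* windows held no match. A match is a string of letters in a window and was not tied to binding.

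All 9 genes had their highest group mean in iNOSKO M1, and in 8 of 9 the 4 groups stood in the order WT CON, iNOSKO CON, WT M1, iNOSKO M1. The exception was *Stat3*, where WT CON and iNOSKO CON overlapped and iNOSKO CON was nominally the lowest. In *Stat6*, which is counted among the 8, WT CON and iNOSKO CON overlapped as well. The shares of all probes in this order, or highest in iNOSKO M1, were not counted. After LPS plus IFN-γ, 8 of the 9 genes were called higher in iNOSKO than in WT (limma, adjusted p under 0.05) and none lower, with *Stat6* not called. Of all probes tested, 24.2% were called higher in this comparison. The median log2 difference of the 9 genes was 1.23, against 0.00 over all probes tested. It depended on scaling and was 0.73 both with neqc and with quantile normalization. In unstimulated cells 7 of 9 were called higher in iNOSKO and none lower, with *Stat3* and *Stat6* not called, against 15.9% of all probes. The median was 1.07, against -0.02 over all probes, and was 0.74 with neqc and 0.92 with quantile normalization. These comparisons use the brightest probe of each gene. The call of *Cish* after stimulation was lost under both other normalizations tried, as given below, which leaves 7 of 9. In the main fit *Stat5a* was called in both comparisons by its brighter probe and in neither by its other one. Without *Stat5a* among the calls the counts are 7 of 9 after stimulation and 6 of 9 before it.

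**Figure D1:**
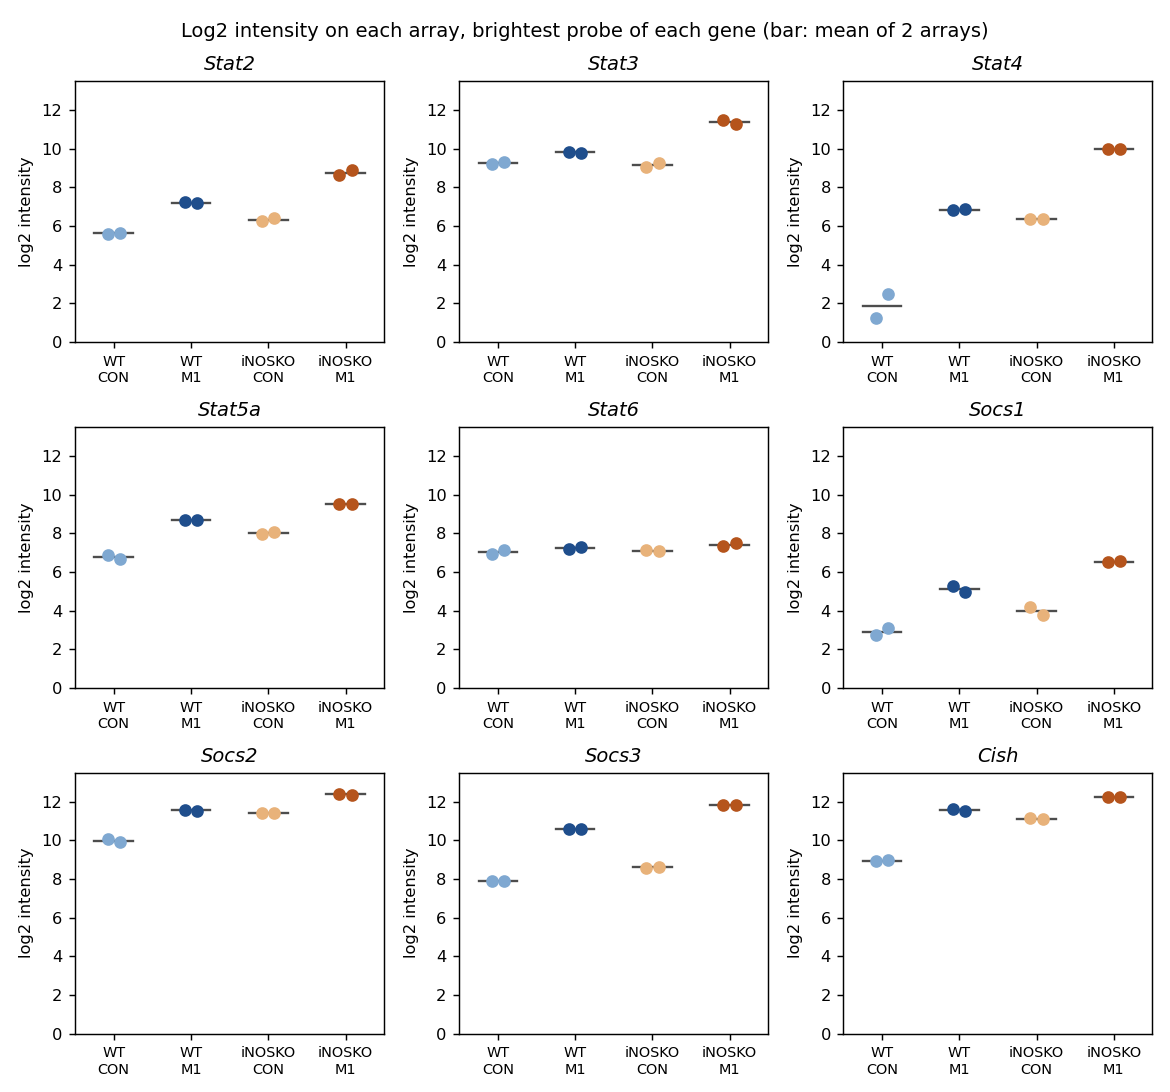
Log2 intensity (vertical axis, after rank-invariant scaling) of the brightest probe of each of the 9 genes on every array, by group (horizontal axis), each point an array and each bar the mean of 2 arrays. The iNOSKO M1 arrays lie highest in all 9 panels, by 3.15 above WT M1 in the *Stat4* panel and by 0.16 in the *Stat6* panel. Levels are not comparable between panels, since each is a different probe.

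The stimulus itself was followed by higher mRNA of most of these genes in each genotype. In WT, 8 of 9 were called higher in M1 than in CON (20.2% of all probes) and in iNOSKO also 8 of 9 (26.2% of all probes), with none lower and *Stat6* not called in either. The medians of the 9 genes were 1.91 and 2.23, against 0.07 and 0.04 over all probes. With neqc they were 1.58 and 1.68, and with quantile normalization 1.89 and 1.70. The share of higher probes among those called in these responses depended on scaling. In WT it was 57.6%, and 44.4% with neqc and 47.4% with quantile normalization. In iNOSKO it was 52.4%, and 43.3% and 41.9% with these. Quantile normalization placed the median of all probes at -0.06 in WT and -0.13 in iNOSKO, so small responses are to be read against these shifts. The genotype comparisons and the responses share arrays, and their values are given side by side and not as independent results.

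**Figure D2:**
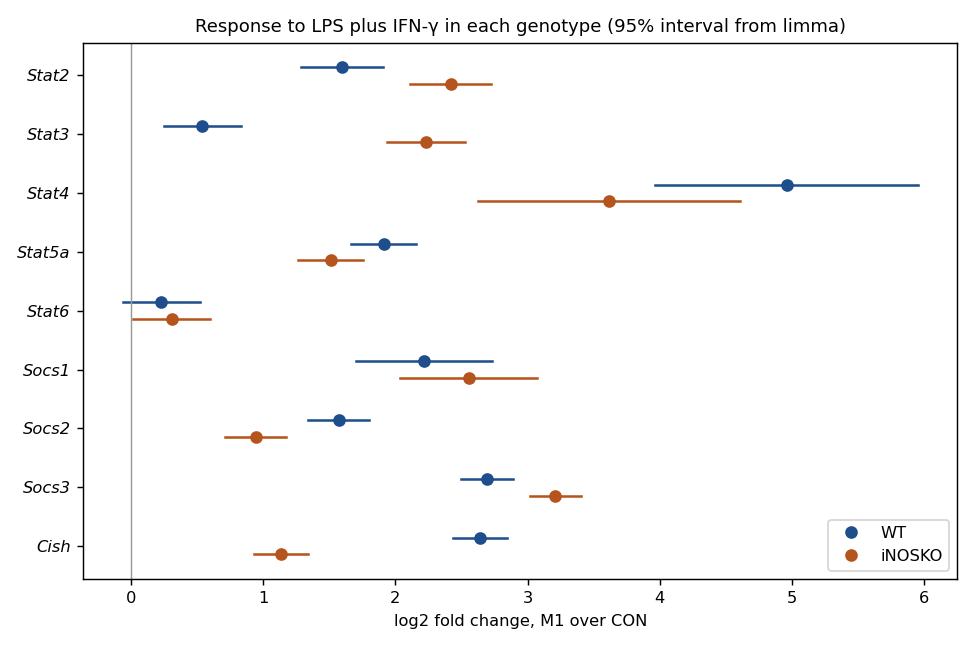
Log2 fold change of M1 over CON (horizontal axis) in WT (blue) and iNOSKO (orange) for the brightest probe of each gene, each point an estimate from 2 arrays against 2 and each line its 95% interval from limma. *Stat3* rose by 0.54 in WT and 2.23 in iNOSKO, and *Cish* by 2.64 in WT and 1.14 in iNOSKO.

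The interferon-linked genes were *Stat2* and *Socs1*. *Stat2*, the STAT of the type I interferon complex, read 5.58 and 5.66 on the WT CON arrays, 6.25 and 6.42 in iNOSKO CON, 7.24 and 7.19 in WT M1, and 8.63 and 8.88 in iNOSKO M1. No group overlapped another. After stimulation *Stat2* was 2.91-fold higher in iNOSKO (log2 difference 1.54 ± 0.12 SE, 95% interval 1.23 to 1.85, adjusted p = 0.000549). Before stimulation the difference was 0.72 ± 0.12 (adjusted p = 0.00989), and it lost its call without WT CON replicate 1 (0.68, adjusted p = 0.0541) or without iNOSKO CON replicate 2 (0.63, adjusted p = 0.0529). The response was 1.60 in WT and 2.42 in iNOSKO, on the log2 scale.

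*Socs1*, the inhibitor that blocks JAK kinases after IFN-γ, was near the lower end of what the array detects in WT CON. It read 2.72 and 3.08 in WT CON, 4.16 and 3.78 in iNOSKO CON, 5.28 and 4.96 in WT M1, and 6.49 and 6.56 in iNOSKO M1. The groups did not overlap. In M1 cells it was 2.65-fold higher in iNOSKO (log2 difference 1.41 ± 0.20, interval 0.89 to 1.92, adjusted p = 0.00363). It rose by 2.22 in WT and by 2.56 in iNOSKO. The unstimulated difference of 1.07 ± 0.20 (adjusted p = 0.0144) depended on the treatment of low values and on single arrays. It was 0.08 (adjusted p = 0.821) when intensities under 16 were set to 16, and it lost its call in the fit of the 4 arrays alone (adjusted p = 0.0514), without WT CON replicate 1 (0.89, adjusted p = 0.0666) and without iNOSKO CON replicate 1 (0.87, adjusted p = 0.0652).

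*Stat3* and *Socs3* belong to one loop, since SOCS3 binds the IL-6 receptor subunit gp130 and ends STAT3 activation there. The brightest *Stat3* probe read 9.23 and 9.30 in WT CON, 9.06 and 9.26 in iNOSKO CON, 9.85 and 9.76 in WT M1, and 11.49 and 11.29 in iNOSKO M1. The unstimulated genotypes overlapped (difference -0.10, interval -0.40 to 0.19, adjusted p = 0.551), while the stimulated ones stood apart by 1.58 ± 0.12 (adjusted p = 0.000458). With neqc and quantile normalization the stimulated difference was 1.13 and 1.14, still called. The other probes gave 1.67 and 1.20 for the stimulated difference, both called, and 0.17 and 0.17 for the unstimulated one, neither called. In WT the response was 0.54, 0.66 and 1.36 for the 3 probes. In iNOSKO it was 2.23, 2.17 and 2.40. The WT response of the brightest probe lost its call when any 1 of the 4 WT arrays was left out, with 0.50 to 0.58 and adjusted p from 0.0598 to 0.0861. That of the probe at 0.66 lost it without WT CON replicate 1 (adjusted p = 0.0558), WT CON replicate 2 (adjusted p = 0.0604) or WT M1 replicate 2 (adjusted p = 0.0543).

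*Socs3* read 7.89 and 7.92 in WT CON, 8.59 and 8.64 in iNOSKO CON, 10.61 and 10.59 in WT M1, and 11.84 and 11.81 in iNOSKO M1, with the arrays of a group within 0.1 of each other throughout. It carries the TTCNNNGAA match printed above. It rose 6.47-fold in WT and 9.26-fold in iNOSKO. The genotype difference was 1.23 ± 0.08 in M1 (adjusted p = 0.000309) and 0.71 ± 0.08 in CON (adjusted p = 0.00234). With neqc the M1 difference was 0.73, still called. Whereas the unstimulated *Stat3* levels did not separate the genotypes, those of *Socs3* did; that these genes differ here was not tested.

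*Stat4*, the factor through which IL-12 acts, had the widest range of group means, 8.11 on the log2 scale for its brightest probe, but its lowest group was at the limit of detection. The 3 probes are shown by the first 30 of their 50 bases, since 2 of them moved and the third stayed dark.
*Stat4* probe from base 1833 of the transcript: ctgtcgtgatgatttctaatgtcagccaac
*Stat4* probe from base 2611 of the transcript: ggagccacaatctccttcagaccttctccc
*Stat4* probe from base 2743 of the transcript, not detected: acggacactttaaagaaggaagcagatgaa

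The brightest probe, from base 2611, read 1.25, not detected, and 2.50 in WT CON, 6.36 and 6.38 in iNOSKO CON, 6.81 and 6.86 in WT M1, and 9.99 and 9.97 in iNOSKO M1. The probe from base 1833 read 2.87 and 1.11, the latter not detected, in WT CON, 4.49 and 4.58 in iNOSKO CON, 5.04 and 4.76 in WT M1, and 8.19 and 8.34 in iNOSKO M1. Both probes were thus measured on 1 of 2 WT CON arrays, and not on the same one. The probe from base 2743 was between 0 and 1.76 on all arrays and carries an older transcript version than the others. In M1 cells *Stat4* was 8.88-fold higher in iNOSKO by the first probe (log2 difference 3.15 ± 0.39, interval 2.16 to 4.14, adjusted p = 0.00215) and 10.3-fold by the second (3.37 ± 0.55, adjusted p = 0.00558), the largest M1 difference among the 9 genes. Both probes were detected on all M1 arrays, but the second was dim in WT M1, with scaled intensities of 32.95 and 27.08. Over all alternatives the M1 difference was 2.77 to 3.18 for the first probe and 2.82 to 3.51 for the second. The differences from WT CON were less certain. The unstimulated genotypes differed by 4.49 by the first probe and 2.55 by the second, both called, and with the floor of 16 the values were 2.37 and 0.54. The WT response was 4.96 and 2.91, both called, and 2.83 and 0.90 with that floor. The second probe lost the call of the unstimulated difference in the fit of the 4 arrays alone (adjusted p = 0.0849) and without either iNOSKO CON array (adjusted p = 0.0845 and 0.0893). It lost the call of the WT response in the fit of the 4 arrays alone (adjusted p = 0.0669) and without either WT M1 array (adjusted p = 0.0636 and 0.0524). The iNOSKO response was 3.62 and 3.73.

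**Figure D3:**
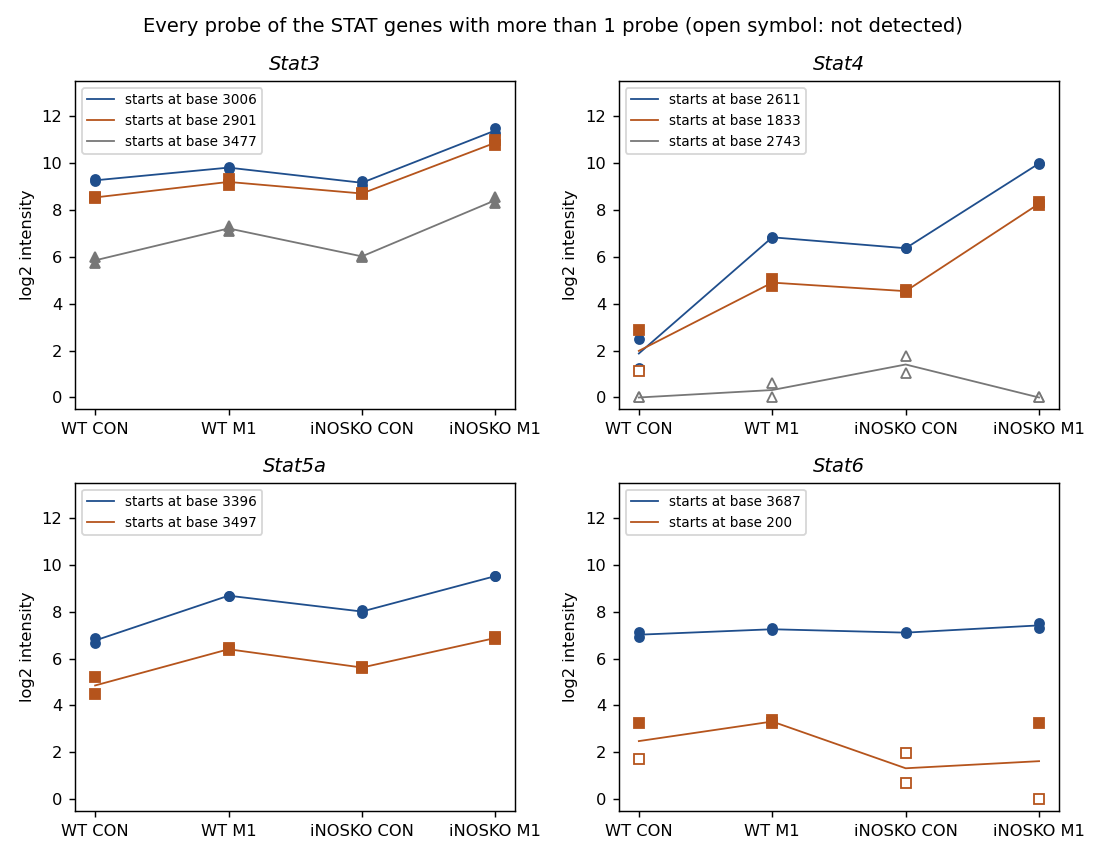
Log2 intensity (vertical axis) of every probe of *Stat3*, *Stat4*, *Stat5a* and *Stat6* by group (horizontal axis), each symbol an array, open where the probe was not detected, and each line joining the group means of a probe named by its first base in the transcript. The *Stat3* probes keep one order of groups apart from the unstimulated pair, 1 *Stat4* probe is dark throughout, and the *Stat6* probe from base 200 is at the limit of detection.

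*Stat5a*, *Cish* and *Socs2* are tied to GM-CSF, which all cultures received. STAT5 is phosphorylated after GM-CSF binds, and *Cish* and *Socs2* are known STAT5 targets whose products act back on cytokine receptors. The *Stat5a* probes are shown by the first 30 of their 50 bases, since they gave different calls.
*Stat5a* probe from base 3396 of the transcript, brighter: gtgctaggattacaggcatgcatgaccaca
*Stat5a* probe from base 3497 of the transcript, dimmer: gggtctgggaggaggaaacctggggcgaaa

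A 30-base stretch of the brighter probe was found, with at most 8 mismatches on either strand, in 45 of 32849 promoters of other genes, against 3 to 39 for the other 14 probes of these genes, and with at most 6 mismatches in 2, against 0 to 3. By eye its bases resemble the B1 repeat of the mouse genome. No repeat sequence and no genome was used here, so whether this probe also binds other transcripts was not tested, and its values hold for *Stat5a* only as far as the array annotation does. The brighter *Stat5a* probe read 6.86 and 6.68 in WT CON, 7.95 and 8.06 in iNOSKO CON, 8.69 and 8.68 in WT M1, and 9.53 and 9.51 in iNOSKO M1, with no overlap. It was higher in iNOSKO by 1.24 ± 0.10 before stimulation (adjusted p = 0.000868) and by 0.84 ± 0.10 after it (adjusted p = 0.00169). The dimmer probe gave 0.76 (interval 0.19 to 1.34, adjusted p = 0.0563) and 0.48 (interval -0.10 to 1.06, adjusted p = 0.142), neither called. In the main fit the genotype call of *Stat5a* thus rests on 1 of its 2 probes, although both have the same sign. With neqc the dimmer probe was called before stimulation (0.47, limma adjusted p = 0.0175) and after it (0.47, adjusted p = 0.0129). It was also called after stimulation in the 4 arrays alone (adjusted p = 0.0414). Before stimulation it was called among probes detected on all 8 arrays (adjusted p = 0.0193). Its WT CON arrays read 5.20 and 4.50, and without the first of them the unstimulated difference was 1.11 and called (adjusted p = 0.00672). Without either WT CON array, the dimmer probe's M1 difference of 0.48 was called (adjusted p = 0.0152 and 0.0151). Both probes rose with stimulation, by 1.91 and 1.54 in WT and by 1.51 and 1.26 in iNOSKO.

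*Cish* separated the unstimulated genotypes more than any other member that was detected on every array. It read 8.91 and 8.96 in WT CON, 11.15 and 11.09 in iNOSKO CON, 11.62 and 11.54 in WT M1, and 12.26 and 12.26 in iNOSKO M1. The unstimulated iNOSKO arrays thus lay nearer to the WT M1 arrays than to the WT CON arrays. The difference was 2.19 ± 0.08 in CON, or 4.55-fold (interval 1.98 to 2.39, adjusted p = 9.91e-05), and 2.16 to 2.44 over the alternatives. In M1 it was 0.68 ± 0.08, or 1.60-fold (adjusted p = 0.00182). With neqc and with quantile normalization the M1 difference was 0.18 and was not called (adjusted p = 0.128 and 0.130). *Cish* rose by 2.64 in WT and by 1.14 in iNOSKO, and by 0.45 in iNOSKO with neqc, still called.

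*Socs2*, which is best known for limiting growth hormone signalling, followed the same order. It read 10.06 and 9.90 in WT CON, 11.44 and 11.43 in iNOSKO CON, 11.58 and 11.53 in WT M1, and 12.41 and 12.35 in iNOSKO M1. The step from iNOSKO CON to WT M1 was 0.12, the smallest between those groups among the 9 genes, although the arrays did not overlap. The genotype difference was 1.45 ± 0.09 before stimulation (adjusted p = 0.000448) and 0.82 ± 0.09 after it (adjusted p = 0.00147), and the latter was 0.32 with neqc, still called. The response was 1.57 in WT and 0.94 in iNOSKO. With neqc and quantile normalization the iNOSKO response was 0.24 and 0.25 and was not called (adjusted p = 0.0632 and 0.0975).

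**Figure D4:**
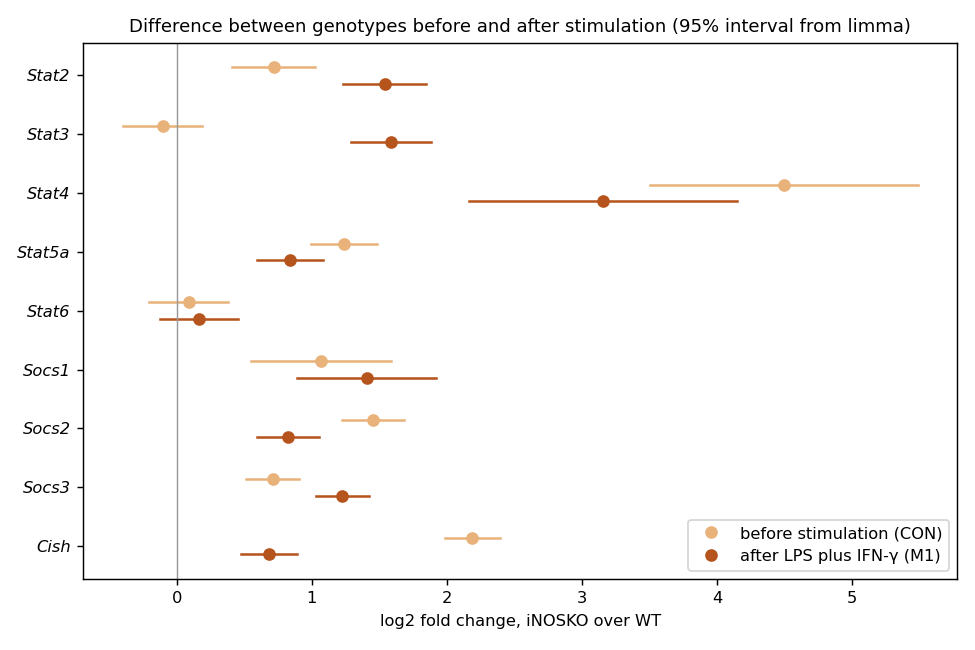
Log2 fold change of iNOSKO over WT (horizontal axis) for the brightest probe of each gene before stimulation (light) and after LPS plus IFN-γ (dark), each point an estimate from 2 arrays against 2 and each line its 95% interval from limma. *Stat3* differed after stimulation (1.58) and not detectably before it (-0.10), whereas *Cish*, *Socs2* and *Stat5a* have their larger values before it (2.19, 1.45 and 1.24).

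*Stat6*, which carries the IL-4 and IL-13 signals of alternative activation, did not pass the test in any comparison. Its brighter probe read 6.92 and 7.11 in WT CON, 7.12 and 7.09 in iNOSKO CON, 7.20 and 7.30 in WT M1, and 7.32 and 7.51 in iNOSKO M1. The M1 difference was 0.16 (interval -0.13 to 0.46, adjusted p = 0.290), the unstimulated one 0.09 (interval -0.20 to 0.38, adjusted p = 0.614), and the responses were 0.23 in WT (interval -0.06 to 0.52) and 0.31 in iNOSKO (interval 0.02 to 0.60, adjusted p = 0.0744). A 2-fold change lies outside each of these intervals. The iNOSKO response was called when the test was limited to probes detected on all 8 arrays (adjusted p = 0.0408). The other *Stat6* probe, from base 200 of the transcript, was detected on 4 of 8 arrays and overlapped between all neighbouring groups. It gave -1.69 for the M1 difference, with an interval of -4.66 to 1.28, and -3.31, called, without iNOSKO M1 replicate 2 (adjusted p = 0.0384).

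Whether the response to LPS plus IFN-γ differed between genotypes was tested as the response in iNOSKO minus that in WT. It differed in 5 of the 9 genes, 3 with the larger response in iNOSKO and 2 with the smaller. Of all probes 20.8% were called in the first direction and 21.1% in the other. The larger responses were those of *Stat3* (1.69 ± 0.16, interval 1.27 to 2.10, adjusted p = 0.00144, with 1.50 and 1.03 by the other probes, both called), *Stat2* (0.82 ± 0.17, adjusted p = 0.0150) and *Socs3* (0.52 ± 0.11, adjusted p = 0.0151). The smaller were those of *Cish* (-1.50 ± 0.11, interval -1.79 to -1.21, adjusted p = 0.000744) and *Socs2* (-0.63 ± 0.13, adjusted p = 0.0142). *Socs3* had no such difference under other scalings, with -0.02 by neqc (adjusted p = 0.928) and -0.05 by quantile normalization (adjusted p = 0.757), and it also lost its call without iNOSKO CON replicate 1 (0.49, adjusted p = 0.0516). Those of *Cish* and *Socs2* were then larger in size, at -2.22 and -1.33 by neqc, and that of *Stat3* was 1.10. *Stat4* (-1.34 and 0.82 by its 2 probes), *Stat5a* (-0.40, adjusted p = 0.0673), *Socs1* (0.34, interval -0.39 to 1.07) and *Stat6* (0.08, interval -0.33 to 0.49) were not called. Of these, the brighter *Stat5a* probe was called at -0.57 by neqc, -0.66 by quantile normalization and -0.40 with the floor of 16. *Socs1* was called at 0.81 by neqc and 1.32 with that floor, and not at 0.63 by quantile normalization. The brightest *Stat4* probe was called at 0.57 by neqc and 0.78 with that floor, against its sign in the main scaling. The other *Stat4* probe was called at 2.00 by neqc and 2.83 with that floor. Without WT CON replicate 1 or 2, the difference was -0.71 and -1.97 for the brightest *Stat4* probe, and -0.06 and 1.70 for the other. The floor of 16 left 8 of the 9 genes called.

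**Figure D5:**
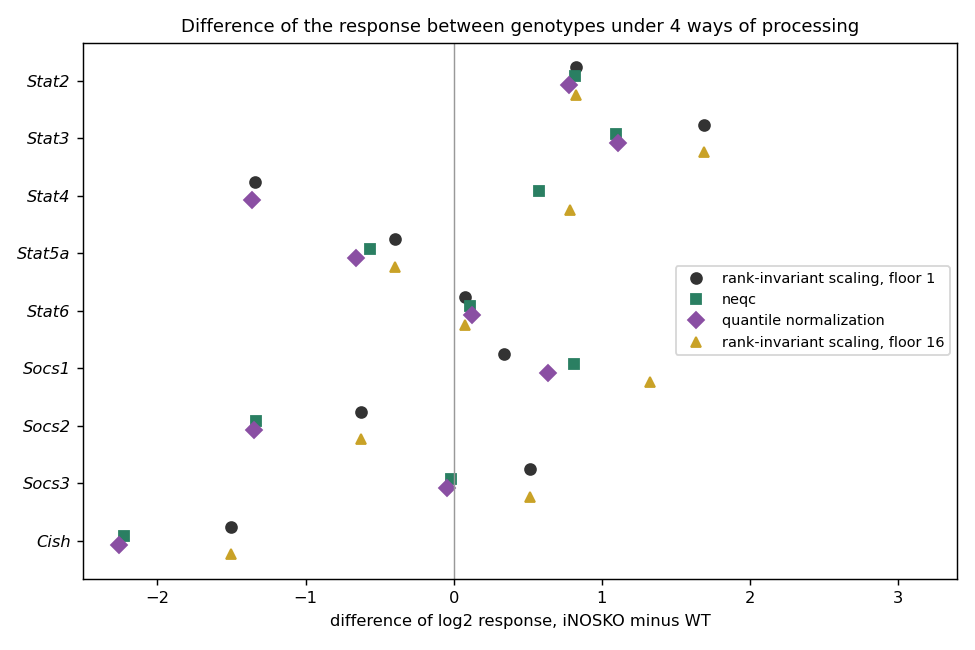
Difference of the log2 response, iNOSKO minus WT (horizontal axis), for the brightest probe of each gene under rank-invariant scaling with a floor of 1 or 16, neqc and quantile normalization (symbols). *Stat2*, *Stat3*, *Stat6* and *Socs1* stay above 0 and *Stat5a*, *Socs2* and *Cish* below it under all 4. In contrast, *Socs3* moves from 0.52 to -0.02 and -0.05 and *Stat4* takes both signs.

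Around these genes, the pathway was read from lists drawn up from general knowledge. All 4 JAK kinases were called higher in iNOSKO M1 than in WT M1, against 24.2% of all probes. *Jak2*, which serves the GM-CSF and IFN-γ receptors, differed by 1.39, *Jak1* by 0.70 and *Tyk2* by 0.59, and *Tyk2* was not called with neqc (0.22, adjusted p = 0.0841). Before stimulation *Jak2* was higher by 2.76 and *Tyk2* by 0.66, while *Jak1* was lower, at -0.81. The response of *Jak2* was 3.35 in WT and 1.99 in iNOSKO, a difference of -1.36 (adjusted p = 0.00280).

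Of 18 receptor genes tested, 7 were called higher and 4 lower in iNOSKO M1, or 38.9% and 22.2%, against 24.2% and 24.3% of all probes, and 6 and 6 with neqc. The share called lower is near that of all probes. Their median was 0.25, against 0.00 over all probes. *Ifngr1*, the ligand-binding chain of the IFN-γ receptor, was lower at -2.15 (adjusted p = 0.000219) after no detectable difference before stimulation (0.24, adjusted p = 0.158). *Il6ra* was lower at -4.15, with 1 of 2 iNOSKO M1 arrays detected, and *Il12rb1*, a chain of the IL-12 receptor, higher at 2.40, with 1 of 2 WT M1 arrays detected. Of 10 ligand genes tested, 7 were called higher in iNOSKO M1 and none lower, with a median of 1.61, or 1.47 with the genes undetected in an M1 group at their bound. *Il12b*, the p40 chain of IL-12, differed by 3.25, with 1 of 2 WT M1 arrays detected, and *Il6* by 1.89. *Il10*, whose signal runs through STAT3, was detected on both iNOSKO M1 arrays and on neither WT M1 array, and was at least 2.52-fold higher (adjusted p = 0.0119). That bound sets the bright group's mean against the lowest signal detected or the probe's own, whichever was higher. Before stimulation 1 of the 10 ligands, *Il6*, was called higher, by at least 2.66-fold, against 15.9% of all probes called higher. *Ifng* was not detected in either M1 group.

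Among 9 inhibitors outside the SOCS family, 3 were called higher in iNOSKO M1, or 33.3% against 24.2% of all probes, and none lower. With neqc and with quantile normalization 2 of 9 were higher, a share near that of all probes. The 3 were *Usp18*, which blocks the type I interferon receptor, at 2.21, the phosphatase *Ptprc* at 1.07 and the phosphatase *Ptpn11* at 0.48, of which the last was 0.04 and not called with neqc (adjusted p = 0.778). The median of this list was 0.28. *Usp18* was also higher before stimulation, by 0.97, and rose by 2.82 in WT and 4.06 in iNOSKO. Of 10 genes known as STAT targets or partners, 7 were called higher and 1 lower in iNOSKO M1, against 24.2% and 24.3% of all probes. Their median was 1.10. *Irf1*, which is induced by IFN-γ, was higher at 1.45 and *Bcl6* at 1.34, and *Arg1*, the arginase induced through STAT6, was lower at -1.68. Before stimulation 2 of 10 were called higher and 4 lower, against 15.9% and 16.2% of all probes. *Ccnd1* was then higher by 4.56, *Arg1* lower at -3.68 and *Irf1* lower at -1.01. The responses of this list differed between genotypes in 9 of 10 genes, 8 with the larger response in iNOSKO, among them *Irf1* (2.46) and *Arg1* (2.00), and 1, *Ccnd1*, with the smaller (-3.28). Of all probes, 20.8% were called with the larger response in iNOSKO and 21.1% with the smaller.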

How the data were processed

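RNA of the 8 samples was hybridised to Illumina MouseRef-8 arrays by the labels, MouseWG-8 by the study's methods. The authors deposited the bead-averaged intensity of each probe, not normalized between arrays, and its detection p-value, written by GSGX 1.9.0. The submitters' processing notes name GenomeStudio and limma 3.14.4. Undetected probes lie around 0, as after background subtraction, so none was subtracted. Arrays were scaled to the mean array over rank-invariant probes with a robust line (MASS 7.3.60.0.1), values under 1 were set to 1 and log2 was taken, after the methods, which put 1 in place of negative values only. The details of the scaling were chosen here. The 13868 probes that were detected (p-value under 0.05) on 2 or more arrays entered a model of the 4 group means over 8 arrays in limma 3.58.1 (R 4.3.3), with Benjamini-Hochberg adjustment over all of them, 2-sided, and calls at 0.05. Errors are standard errors of that fit. The procedure was tested on simulated data with 200 changed probes among 13868. Of these 155 were called, 64 with a log2 change of 1 and 91 with a log2 change of 2 in either direction. A further 19 unchanged probes were called. The changed probes had both sizes in equal numbers, lay above a set mean intensity and were changed in the iNOSKO M1 arrays only. The simulation thus did not test changes near the floor, or the scaling with as many changes as were called here.

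The members and lists were chosen with earlier results of these data known. Each member is given by all its probes, and the probe with the highest mean leads. List genes are named where called and among the 3 largest changes of their list, or where their detection bears on a member. Sequences are RefSeq's or the file's; probe positions in the genome are not given, because the build of the array's annotation is not stated. Value columns that could not be tied to a sample numbered 0. The number of arrays limits the precision. Tried instead were a floor of 16, quantile normalization, neqc, all probes without the filter, only probes detected on all 8 arrays, the 4 arrays of a comparison alone, the replicate number as a block, and each array left out in turn.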

Additional observations from a re-analysis of the deposited data

Results flagged for a closer look

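The response to LPS plus IFN-γ differed between the genotypes, by the test of the difference itself, for 7 probes of 5 genes. These are 7 of 14 probes tested for the members, against 41.9% of all probes called in either direction. The log2 response in iNOSKO minus that in WT was 0.82 for *Stat2*, 1.69, 1.50 and 1.03 for the 3 probes of *Stat3*, 0.52 for *Socs3*, -0.63 for *Socs2* and -1.50 for *Cish*. Limma's adjusted p-values were 0.0150 for *Stat2*, 0.00144, 0.00243 and 0.0150 for *Stat3*, 0.0151 for *Socs3*, 0.0142 for *Socs2* and 0.000744 for *Cish*. The *Socs3* value was -0.02 with neqc and -0.05 with quantile normalization, and was called with neither (limma adjusted p = 0.928 and 0.757). The iNOSKO CON arrays, which enter each of these values, lay nearer to the WT M1 arrays than to the WT CON arrays, and the part of this in the differences was not tested.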

How the results depend on the processing

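With 2 arrays a group, single arrays moved counts. Leaving out 1 array at a time left 2776 to 4502 of all probes called between the unstimulated genotypes, against 4447, and 3162 to 4920 in the WT response, against 4867. The first fell to 2776 to 2876 without any 1 of the 4 CON arrays, and the second to 3162 without WT CON replicate 2, 3197 without WT CON replicate 1, 3343 without WT M1 replicate 1 and 3279 without WT M1 replicate 2. Of the 9 genes, 7 to 8 were called in the M1 comparison over all alternatives, 5 to 7 in the unstimulated comparison, 7 to 8 in each response and 4 to 8 for the difference of the response, where the floor of 16 gave 8 against 5. Low signal limits *Stat4* and *Socs1* in WT CON and the dim *Stat6* probe throughout.

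Signs turned for these values. The unstimulated *Stat3* difference was 0.031 with neqc and 0.032 with quantile normalization. The difference of the response was 0.57 with neqc and 0.78 with the floor of 16 for the brightest *Stat4* probe, and -0.017 with neqc and -0.049 with quantile normalization for *Socs3*. With arrays left out in turn it was -0.059 to 1.70 for the second *Stat4* probe, -0.63 to 0.064 for the second *Stat5a* probe, and -0.019 to 0.17 and -2.15 to 1.09 for the *Stat6* probes. The unstimulated difference of the brighter *Stat6* probe was then -0.0085 to 0.18, and the iNOSKO response of the dim one -1.32 to 1.93. The cause was not tested.

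The replicate numbers are shared by the groups, and deviations of same-numbered arrays correlated at -0.04 to 0.02 over the probes tested. Measurement noise enters these deviations, so they cannot tell whether same-numbered arrays share a mouse or a culture. With a replicate block 6271 probes were called between the M1 groups, against 6723, and 8 of the 9 genes.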
